A study of Mus musculus with 16 samples.

Results

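The 10 transcription factor genes Foxl2, Nr5a1, Nr5a2, Gata4, Gata6, Wt1, Tbx3, Esr2, Runx2 and Emx2 were followed through 16 RNA-seq libraries of mouse ovarian granulosa cells (mGCs). They were chosen by gene name, as factors that act in the somatic cells of the ovary, and are 10 of the 57010 genes in the count table. All 10 had reads in every library.

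Con-mGC (5 libraries) and EM-mGC (5 libraries) were isolated fresh from ICR mice after ovulation induction. EM mice, a surgical model of endometriosis, carried pieces of donor endometrium stitched to the intestinal mesentery, and Con mice had a sham operation without implants. The methods give oestradiol to the receptor mice after the graft, followed by a washout before ovulation induction. Whether the sham mice also had oestradiol is not stated, and if they did not, graft and oestradiol cannot be told apart. The mice were 6 weeks old at surgery, and all the cells that were cultured came from EM mice. PBS (3 libraries) and EET (3 libraries) were mGCs from 6 EM mice, grown in DMEM/F12 with 5% serum. EET had 100 nM 14,15-EET, an epoxide of arachidonic acid, for 24 h, and PBS had an equal volume of phosphate-buffered saline. Whether that was the solvent of the 14,15-EET is not stated. The labels give 24 h of culture, whereas the methods describe a day of culture before the day of treatment. The model is a graft of healthy tissue and not a spontaneous disease, and there was no culture of cells from Con mice. Whether the libraries of a group came from separate cultures is given only as paired biological replicates, so p-values measure the spread between these libraries.

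Granulosa cells surround the oocyte, make oestradiol and respond to gonadotropins, and a small set of transcription factors holds them in that state. FOXL2 keeps the granulosa programme and represses testis genes. NR5A1 (SF-1) and NR5A2 (LRH-1) are orphan nuclear receptors that read the same response element in steroidogenic genes, and NR5A2 is needed for ovulation. GATA4 and GATA6 are zinc finger factors that act with them, ESR2 is the main oestrogen receptor of granulosa cells, and RUNX2 is induced around ovulation. WT1 is a zinc finger factor of early follicles and of the ovarian surface, TBX3 is a T-box repressor, and EMX2 is a homeobox factor needed for the urogenital tract to form.

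Total counts were 14229123 to 15999234 in the fresh libraries and 21384686 to 29482826 in the cultured ones. Levels are counts scaled to the library total, as CPM, after 1 TMM normalization over all 16 libraries. Of the counts, 6.76% to 11.1% were mitochondrial in 9 fresh libraries, 21.9% in EM-mGC replicate 3, and 1.18% to 1.64% in cultured ones, so estimates without EM-mGC replicate 3 are given with both EM comparisons. The label granulosa cell held for the fresh libraries, where the FSH receptor gene Fshr was at 103 ± 49.3 CPM in EM-mGC (SD, n = 5) and aromatase, Cyp19a1, at 288 ± 192. In PBS (SD, n = 3) Fshr was at 5.16 ± 0.414 and Cyp19a1 at 0.169 ± 0.19 CPM, so these defining markers were nearly absent after culture, whereas inhibin alpha, Inha, stood at 2840 ± 273. The fresh libraries also held RNA of other cells: the 8 oocyte markers summed to 100 to 777 CPM in EM-mGC and to 1.2 to 1.36 in PBS. In bulk RNA, fewer cells of a type and less RNA per cell cannot be told apart.

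Among the fresh cells, Nr5a2 had the highest level per length of the 10 genes. Per kilobase of merged exon, it stood at 143 ± 23.1 CPM in Con-mGC (SD, n = 5) and at 134 ± 45.9 in EM-mGC (SD, n = 5). Nr5a1 (81 ± 9.57), Foxl2 (65.3 ± 7.09), Gata4 (60.8 ± 8.52) and Esr2 (50.3 ± 13.3 CPM per kilobase in Con-mGC) followed, and each overlapped its neighbour in that order. A second tier held Gata6 (16 ± 1.16), Runx2 (9.51 ± 3.97), Wt1 (8.11 ± 1.34) and Tbx3 (6.09 ± 1.43), again with overlapping neighbours, and Emx2 was lowest in Con-mGC at 3.73 ± 0.389 CPM per kilobase. In EM-mGC Tbx3 (2.96 ± 0.594) and Emx2 (3.19 ± 0.815) overlapped at the bottom. In Con-mGC the tiers were apart, with the lowest Esr2 library at 37.5 and the highest Gata6 library at 17.4 CPM per kilobase, and in EM-mGC they touched, at 20.6 and 21.8. In PBS the order was another one: Gata4 led at 155 ± 9.33 CPM per kilobase (SD, n = 3), Nr5a1 (56.1 ± 2.78) and Foxl2 (44.9 ± 3.02) came next, and Emx2 (20.2 ± 1.3), Esr2 (18.9 ± 1.74) and Nr5a2 (18 ± 0.342) overlapped their neighbours. Runx2 (11.3), Gata6 (5.52), Wt1 (1.53) and Tbx3 (0.0297 CPM per kilobase) closed the order, each apart from the next.

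**Figure D1:**
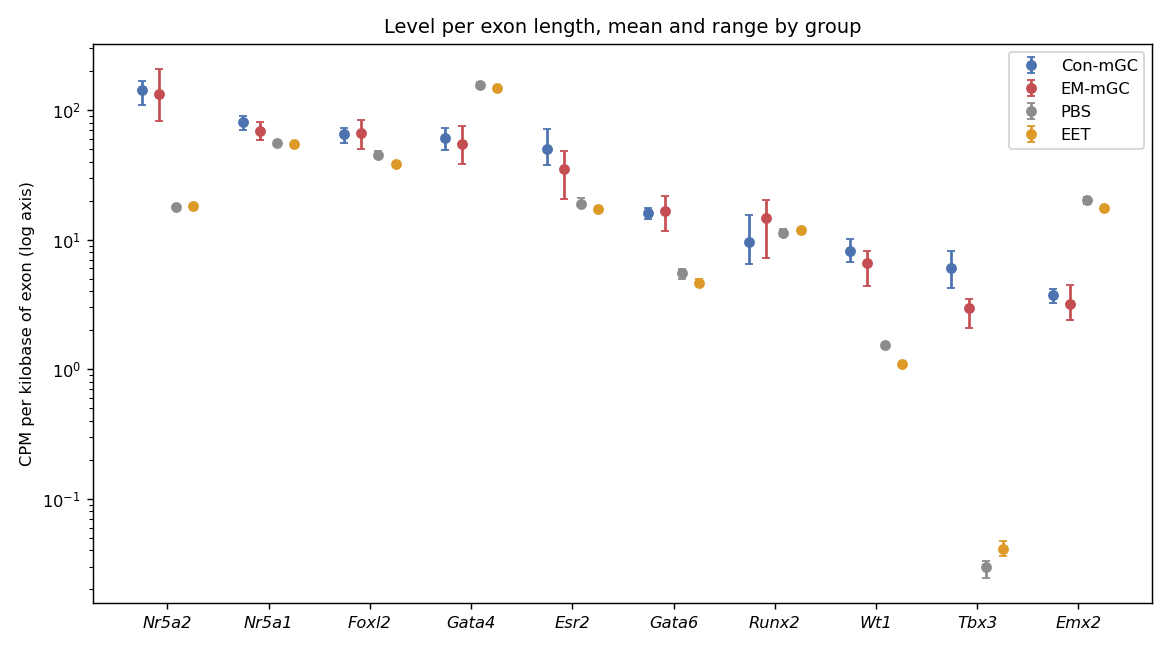
Level of each factor in CPM per kilobase of merged exon (log axis), with points at the group mean and bars from the lowest to the highest library, for Con-mGC and EM-mGC (5 libraries each) and PBS and EET (3 each). Nr5a2 leads in fresh cells at 143 and Gata4 in cultured cells at 155, and Tbx3 lies at 0.0297 in PBS.

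The spread between libraries differed between genes. In Con-mGC the coefficient of variation ran from 7.26% for Gata6 to 41.7% for Runx2, and in EM-mGC from 13.2% for Nr5a1 to 34.9% for Runx2. In PBS it ran from 1.9% for Nr5a2 to 15% for Tbx3, which had 3 to 5 counts per library there. Runx2 therefore had the widest spread in both groups of fresh cells, with 57.23 CPM in Con-mGC replicate 5 and 136.6 CPM in replicate 3.

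**Figure D2:**
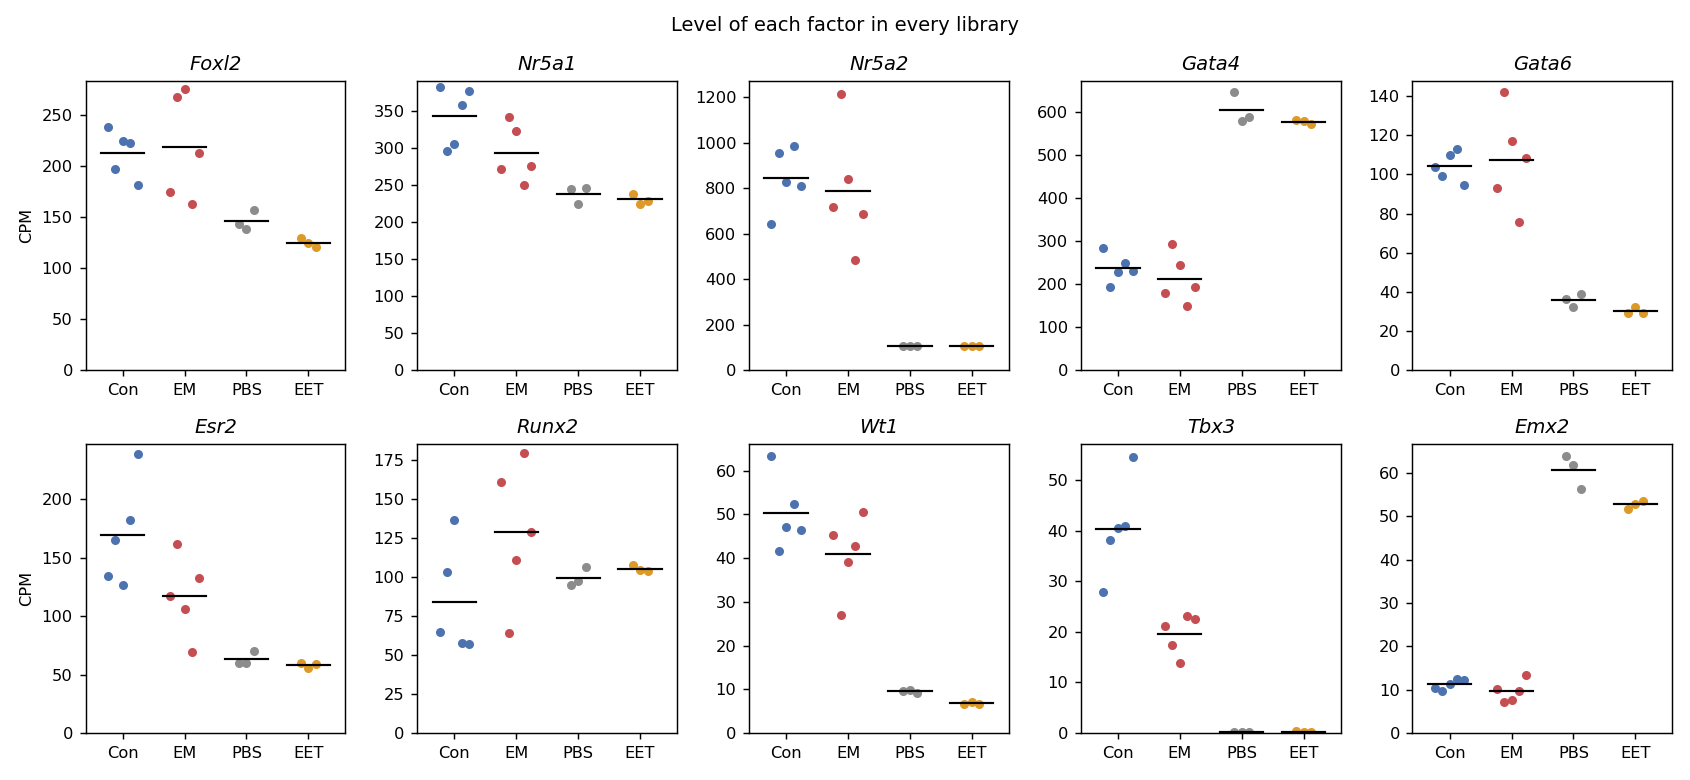
CPM of the 10 factor genes in every library (points) with the group mean (bar), y axes from 0, for Con-mGC (Con), EM-mGC (EM), PBS and EET. Tbx3 is lower in all 5 EM than in all 5 Con libraries, and Gata4 and Emx2 are higher in all cultured than in all fresh libraries.

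The comparison of EM-mGC with Con-mGC asks what the endometriosis model changes in fresh granulosa cells. None of the 10 factors passed edgeR's quasi-likelihood test, and none of all 17229 tested genes did either (0 called, 0%, with 1626 at an unadjusted p under 0.05 and 113 called by DESeq2). Of the 10 point estimates 3 were above and 7 below 0, with a median log2 fold change of -0.20 against -0.01 over all genes. One factor, Tbx3, was lower in every EM than in every Con library, as were 0.743% of all genes (0.993% were higher in every EM library, and 0 of the 10).

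Tbx3 stood at 27.86, 38.1, 40.56, 40.8 and 54.44 CPM in Con-mGC and at 21.15, 17.43, 13.77, 23.06 and 22.57 CPM in EM-mGC. The highest EM library was thus below the lowest Con library. Mean levels were 40.35 ± 9.48 and 19.6 ± 3.94 CPM (SD, n = 5 each). The log2 fold change was -1.05 ± 0.18 (SE), which is 2.07-fold lower, with an edgeR p of 9.61e-05 and an adjusted p of 0.207. That value equals the smallest adjusted p over all genes in this comparison. The adjustment can give several genes the same value, so it does not place Tbx3 first by p. By a two-sided exact permutation test of its CPM the p was 0.00794, the smallest that 5 against 5 libraries allow, before any adjustment for the other genes. DESeq2 gave an adjusted p of 0.000416, and without EM-mGC replicate 3 edgeR gave -0.94 with an adjusted p of 0.383.

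Among summed marker lists of other ovarian cells, those of theca and stroma and of endothelium were apart between the groups, and the others overlapped. Of the single genes 0 of 11 theca and stroma, 0 of 5 endothelial and 0 of 8 leukocyte markers were called (0% of all genes were). The 11 theca and stroma markers summed to 1110 to 1310 CPM in Con-mGC and to 722 to 1050 in EM-mGC, and the 5 endothelial markers to 130 to 151 and to 72.3 to 126, in both lists without overlap. None of the 11 or the 5 was at 0 in either group. Col1a1, a fibrillar collagen of stroma, was at 362 ± 50 CPM in Con-mGC and 186 ± 63 in EM-mGC (SD, n = 5 each), and did not pass the test (edgeR adjusted p = 0.348). Col1a2, of the same collagen, was at 382 ± 25.3 and 257 ± 77.6 CPM (adjusted p = 0.437). Leaving out these 2 genes was a choice made after seeing the data. The other 9 summed to 408 to 533 CPM in Con-mGC and 413 to 536 in EM-mGC. Of the 9, Cyp17a1 (0.19), Insl3 (0.66) and Dcn (0.16) had log2 estimates above 0. Those of Gli1 (-1.19), Tcf21 (-0.43), Lum (-0.39), Nr2f2 (-0.34), Ptch1 (-0.18) and Pdgfra (-0.17) were below 0. Cyp17a1, at 180 CPM in Con-mGC and 207 in EM-mGC, made up much of this sum. The part of these markers in the Tbx3 difference was not tested. The 8 leukocyte markers summed to 87.8 to 192 CPM in Con-mGC and 123 to 303 in EM-mGC, with overlap. Oocyte sums also overlapped, at 333 to 738 CPM in Con-mGC and 100 to 777 in EM-mGC. So did those of surface epithelium (181 to 255 and 107 to 279) and smooth muscle (187 to 318 and 97.9 to 250 CPM). How often sums of other gene lists are apart was not tested.

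Runx2 and Esr2 showed the next largest estimates. Esr2 ranged from 126.4 to 238.4 CPM in Con-mGC and from 69.31 to 161.7 in EM-mGC, with means of 169.4 ± 44.7 and 117.6 ± 34.0 CPM (SD, n = 5 each). Its log2 fold change was -0.54 ± 0.22 (SE, edgeR adjusted p = 0.51). Runx2 pointed the other way, from 84.02 ± 35.1 CPM to 129 ± 45.1, at 0.61 ± 0.30 (adjusted p = 0.54). For both the groups overlapped, and EM-mGC replicate 2 at 64.21 CPM of Runx2 lay below the Con mean. Nr5a1 (-0.24), Wt1 (-0.30), Emx2 (-0.23), Gata4 (-0.17) and Nr5a2 (-0.11) had smaller estimates and edgeR adjusted p-values of 0.558 to 0.891. Without EM-mGC replicate 3 the estimates were -0.503 for Esr2, 0.665 for Runx2, -0.279 for Nr5a1, -0.283 for Wt1, -0.159 for Emx2, -0.23 for Gata4 and -0.135 for Nr5a2, with adjusted p-values of 0.598 to 0.897.

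Foxl2 and Gata6 had the smallest estimates, 0.03 and 0.04 on the log2 scale. Foxl2 stood at 237.8, 197.2, 224.8, 222.5 and 180.8 CPM in Con-mGC and at 174.3, 267.5, 275.3, 162.6 and 212.9 CPM in EM-mGC. Of the EM libraries 2 lay below the Con range, 2 above it and 1 inside it. The sign of the Foxl2 estimate turned to -0.07 without EM-mGC replicate 3, to -0.05 without EM-mGC replicate 2 and to -0.02 without Con-mGC replicate 5. That of Gata6 turned to -0.09 without EM-mGC replicate 2 and was 0.00067 without replicate 3, and that of Nr5a2 to 0.03 without EM-mGC replicate 4.

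**Figure D3:**
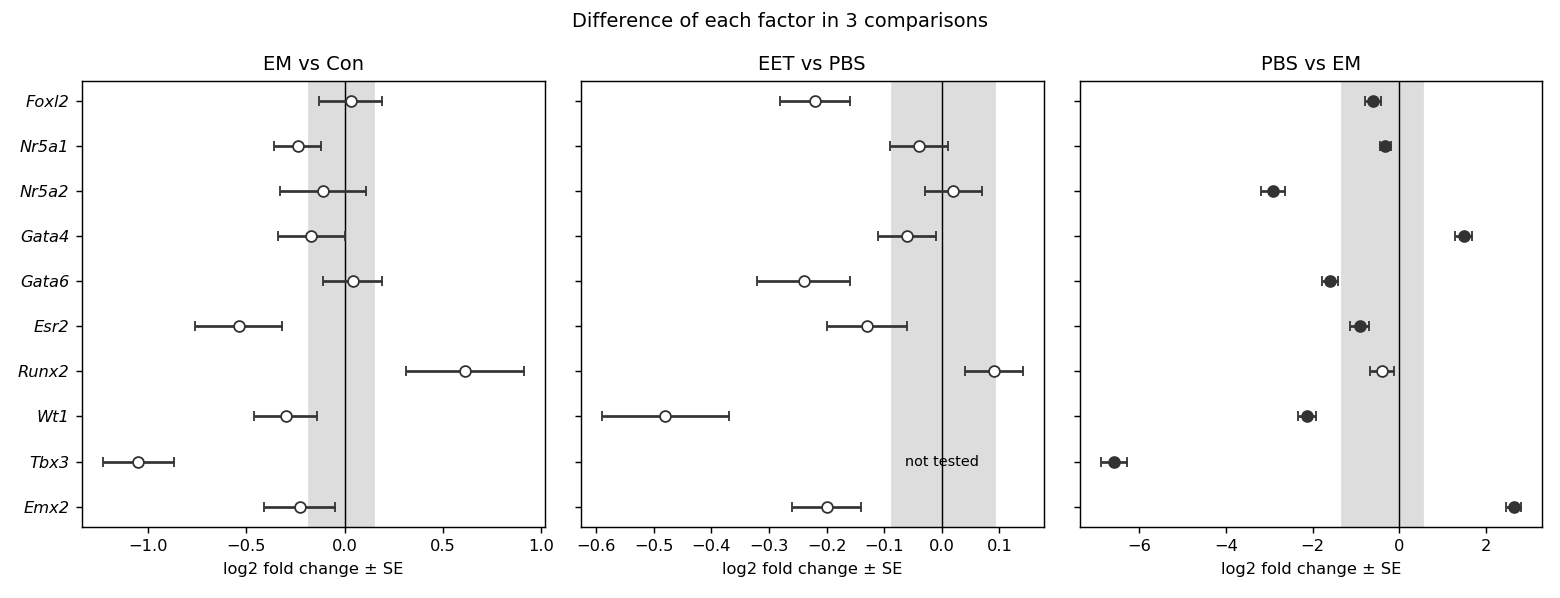
Log2 fold change (first group minus second) with its SE for each factor in 3 comparisons, from edgeR, where filled points passed an adjusted p of 0.05, open points did not, and the grey band spans the middle 50% of all tested genes. All 9 filled points are in the panel of PBS against EM, and the x axes differ between panels.

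EET against PBS asks what 14,15-EET changes in cultured cells. None of the 9 factors tested was called, against 184 of 15050 genes (1.22%), and Tbx3, with 3 to 8 counts in a cultured library, did not pass the filter on low counts. The median log2 fold change of the 9 was -0.12 against 0.00 over all genes, with 7 estimates below and 2 above 0. Foxl2, Gata6, Esr2, Wt1 and Emx2 were lower in each of the 3 EET than in each of the 3 PBS libraries, as were 9.23% of all genes, and 0 of the 9 were higher in each, as were 8.06%. The smallest exact permutation p with 3 against 3 libraries is 0.1.

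Wt1 had the largest difference. It stood at 9.486, 9.915 and 9.066 CPM in PBS and at 6.725, 7.018 and 6.61 CPM in EET. The groups were apart by more than their ranges. The means were 9.49 ± 0.42 and 6.78 ± 0.21 CPM (SD, n = 3 each), from 138 to 226 counts per library, and the log2 fold change was -0.48 ± 0.11 (SE, edgeR adjusted p = 0.054). Foxl2 was at 143.4, 138.3 and 157.3 CPM in PBS and at 129.6, 124.4 and 120.3 in EET. Its means were 146.3 ± 9.84 and 124.8 ± 4.70 CPM (SD, n = 3 each), with a log2 fold change of -0.22 ± 0.06 (SE, edgeR adjusted p = 0.0776).

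Whether these genes passed the threshold depended on the tool, the filter and 1 library. DESeq2 gave adjusted p-values of 0.0462 for Wt1 and 0.0304 for Foxl2, and edgeR without the filter on low counts gave 0.0125 and 0.00727. Without PBS replicate 2 edgeR gave 0.0276 for Foxl2 and 0.0422 for Gata6, the latter at -0.31 on the log2 scale. With all libraries Gata6 (35.9 ± 3.21 to 30.17 ± 1.71 CPM, SD, n = 3 each) was at -0.24 ± 0.08 and Emx2 (60.64 ± 3.91 to 52.71 ± 0.99 CPM) at -0.20 ± 0.06 (SE), both with an edgeR adjusted p of 0.188.

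The steroidogenic receptor pair and Gata4 differed least. Nr5a2 stood at 104.7, 108.3 and 104.8 CPM in PBS and 107.3, 106.7 and 106.2 in EET, a log2 fold change of 0.02 ± 0.05 (SE). Nr5a1 was at -0.04 ± 0.05, Gata4 at -0.06 ± 0.05 and Runx2 at 0.09 ± 0.05, with edgeR adjusted p-values of 0.52 to 0.924, and Esr2 at -0.13 ± 0.07 (adjusted p = 0.47). Of all genes 1.22% were called in this comparison, and the gene lists held few calls. Of the 14 tested granulosa differentiation genes, Inha alone was called, at 2840 ± 273 CPM in PBS and 2200 ± 195 in EET (SD, n = 3 each, edgeR log2 fold change -0.36, adjusted p = 0.043). Of the 8 tested Sertoli genes, which mark the testis counterpart that FOXL2 represses, Cyp26b1, the retinoic acid hydroxylase, was lower, at 164 ± 6.17 and 88 ± 1.43 CPM (log2 fold change -0.89, adjusted p = 6.81e-06).

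Cultured PBS cells were also set against fresh EM-mGC, the same model without culture. The 2 experiments used other mice and have tables of their own, so culture, experiment and sequencing run cannot be told apart, and the comparison shares its EM libraries with the first comparison and its PBS libraries with the second. Here 9 of the 10 factors were called: Gata4 and Emx2 higher (2 of 10, where 31.1% of the 17301 tested genes were called higher) and Foxl2, Nr5a1, Nr5a2, Gata6, Esr2, Wt1 and Tbx3 lower (7 of 10, where 37.9% were called lower). Without overlap between groups 2 were higher and 6 lower, against 32.2% and 34.2% of all genes. The median log2 fold change was -0.76 for the 10 and -0.11 for all genes, so small values are read against -0.11.

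Tbx3 was nearly lost. EM-mGC held 180 to 369 counts per library (13.77 to 23.06 CPM), and the PBS libraries held 3, 5 and 5. Summed, these 13 counts are 0.199 CPM with a 95% exact Poisson interval of 0.106 to 0.341, which places EM-mGC 98.3-fold higher, between 57.5 and 185 by counting error alone. The edgeR log2 fold change was -6.59 ± 0.30 (SE, adjusted p = 1.91e-07). In EET it had 8, 6 and 5 counts.

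Nr5a2 fell most among the factors of high level. It stood at 718.7, 1216, 842.1, 484.5 and 685.7 CPM in EM-mGC and at 104.7, 108.3 and 104.8 CPM in PBS. The groups were far from overlapping, and the 3 cultured libraries were close together. The log2 fold change was -2.92 ± 0.28 (SE, edgeR adjusted p = 1.33e-05), 7.55-fold lower. Its paralog Nr5a1 went from 292.4 ± 38.5 CPM (SD, n = 5) to 237.7 ± 11.8 (SD, n = 3), at -0.32 ± 0.13 with an edgeR adjusted p of 0.0469. That call was lost without EM-mGC replicate 2 (0.0556) or replicate 3 (0.0528), and without PBS replicate 1 (0.116), 2 (0.172) or 3 (0.103).

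The GATA factors moved in opposite directions. Gata4 was at 180.1, 293.1, 243.3, 149.2 and 193.4 CPM in EM-mGC and at 646.7, 579.4 and 588.9 in PBS, a log2 fold change of 1.49 ± 0.20 (SE, edgeR adjusted p = 0.000101), or 2.81-fold higher. Gata6 was at 93.17, 142, 116.9, 75.81 and 108.3 CPM in EM-mGC and at 36.31, 32.51 and 38.88 in PBS, at -1.60 ± 0.19 (adjusted p = 4.71e-05), or 3.03-fold lower. Neither gene's groups overlapped. These directions held under every alternative run.

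Ratios within a library do not depend on its scaling. The Gata4 to Gata6 ratio of CPM per kilobase was 3.22, 3.44, 3.47, 3.28 and 2.98 in EM-mGC and 29.7, 29.7 and 25.2 in PBS. The Nr5a2 to Nr5a1 ratio was 1.9, 2.56, 1.87, 1.4 and 1.79 in EM-mGC and 0.309, 0.347 and 0.308 in PBS. Neither ratio overlapped between fresh and cultured cells (two-sided exact permutation test, p = 0.0179 each, the smallest that 3 against 5 libraries allow, and 0.0537 adjusted over the 6 ratio tests). Between Con-mGC and EM-mGC the Gata4 to Gata6 ratio was 3.81 ± 0.518 and 3.28 ± 0.198 (SD, n = 5 each, exact permutation p = 0.0476, adjusted 0.0952), and the Nr5a2 to Nr5a1 ratio 1.8 ± 0.431 and 1.9 ± 0.418 (exact permutation p = 0.706). In EET the ratios were 32 ± 1.69 and 0.333 ± 0.00878, against 28.2 ± 2.57 and 0.321 ± 0.0227 in PBS (SD, n = 3 each, exact permutation p = 0.1 and 0.4).

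**Figure D4:**
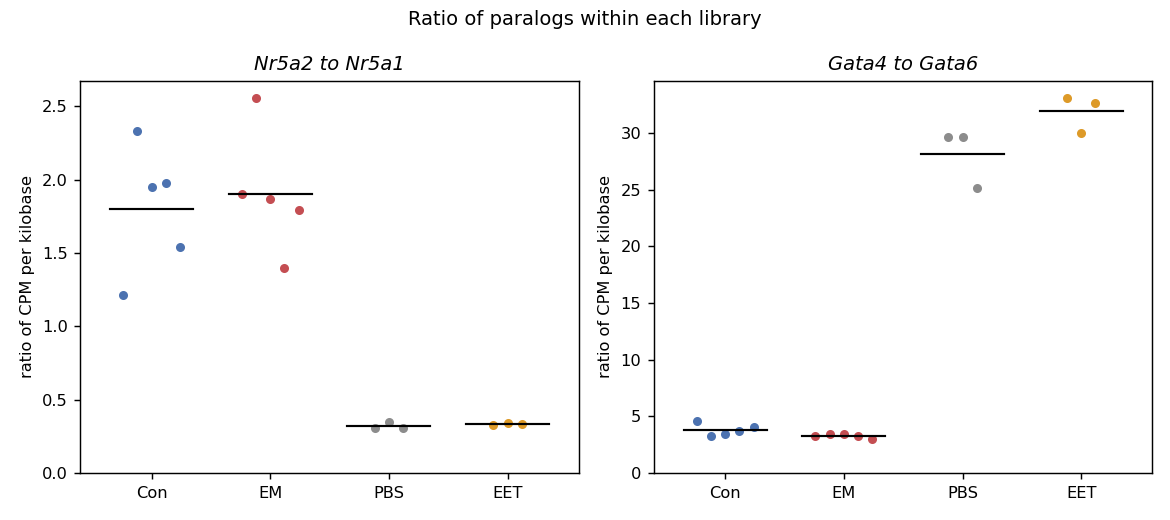
Ratio of CPM per kilobase of Nr5a2 to Nr5a1 (left) and Gata4 to Gata6 (right) in every library (points) with group means (bars), y axes from 0. Cultured libraries lie at 0.308 to 0.347 and at 25.2 to 33.1, fresh ones at 1.21 to 2.56 and at 2.98 to 4.57.

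Emx2 rose 6.23-fold, the largest rise of the 10. It stood at 10.12, 7.202, 7.572, 9.624 and 13.32 CPM in EM-mGC and at 63.89, 61.73 and 56.31 in PBS. The log2 fold change was 2.64 ± 0.18 (SE, edgeR adjusted p = 2.04e-06). Wt1 went the other way, from 45.39, 26.99, 39.01, 42.68 and 50.6 CPM in EM-mGC to 9.486, 9.915 and 9.066 in PBS, at -2.13 ± 0.20 (adjusted p = 1.26e-05).

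Foxl2, Esr2 and Runx2 differed less. Foxl2 went from 218.5 ± 51.8 CPM (SD, n = 5) to 146.3 ± 9.84 (SD, n = 3), at -0.60 ± 0.19 (SE, edgeR adjusted p = 0.0161), which was lost without PBS replicate 1 (0.0613) or replicate 2 (0.0664). Esr2 went from 117.6 to 63.5 CPM (-0.91 ± 0.22, adjusted p = 0.00459), with EM-mGC replicate 4 at 69.31 inside the PBS range of 60.02 to 70.28. Runx2 was at 129 ± 45.1 and 99.65 ± 5.97 CPM and was not called (-0.40 ± 0.28, adjusted p = 0.221), but was called without EM-mGC replicate 2 (-0.60, adjusted p = 0.00891). Without EM-mGC replicate 3 the log2 fold changes in this comparison were -6.71 for Tbx3, -2.91 for Nr5a2, -2.16 for Wt1, -1.58 for Gata6, -0.956 for Esr2, -0.515 for Foxl2, -0.455 for Runx2, 1.53 for Gata4 and 2.56 for Emx2. The calls of these 9 were as with all libraries, and that of Nr5a1 was lost as given above.

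Most markers of theca and stroma, endothelium, leukocytes and oocytes fell in the same comparison, where 31.1% of all genes were called higher and 37.9% lower. The theca and stroma sum was 722 to 1050 CPM in EM-mGC and 296 to 381 in PBS, with 9 of 11 genes called lower, and Cyp17a1, the theca enzyme of androgen synthesis, at 207 ± 58 and 0.0363 ± 0.063 CPM. The endothelial sum was 72.3 to 126 and 4.08 to 4.96 CPM (5 of 5 lower), the leukocyte sum 123 to 303 and 12.1 to 12.8 (8 of 8 lower, S100a8 and S100a9 at 0 in PBS), and all 8 oocyte markers were lower, with Zp1, Oosp1 and Nlrp5 at 0. The surface epithelium sum was 107 to 279 CPM in EM-mGC and 180 to 194 in PBS, with 7 of 9 genes called lower and 2, Krt8 and Krt18, higher. The smooth muscle sum was 97.9 to 250 and 569 to 764 CPM, with 2 of 4 genes called higher, among them Acta2 (log2 fold change 2.22), and 2 lower. Their part in the changes of the 10 factors was not tested.

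Upstream sequence was read from RefSeq windows on GRCm38.p6 for the factors that had one, which leaves out Nr5a1, Gata4, Gata6, Wt1 and Tbx3. Nr5a2 and Emx2 are shown for their change in culture, and Runx2 and Esr2 for a RUNX letter match. Matches among the windows shown therefore come partly from that choice. The window table held 5 of the 10 genes (Foxl2, Nr5a2, Esr2, Runx2 and Emx2), and the 250 bases before the start are shown 5′ to 3′ on the gene's strand, with motif matches in capitals. Motifs were searched on both strands. For GATA these were AGATAA with its variants TGATAA, then AGATAG, and also TGATAG. For RUNX they were TGTGGT plus the form TGCGGT. For NR5A they were CAAGGTCA plus the form CAAGGCCA. For FOX they were GTAAACA plus the form ATAAACA.
Nr5a2: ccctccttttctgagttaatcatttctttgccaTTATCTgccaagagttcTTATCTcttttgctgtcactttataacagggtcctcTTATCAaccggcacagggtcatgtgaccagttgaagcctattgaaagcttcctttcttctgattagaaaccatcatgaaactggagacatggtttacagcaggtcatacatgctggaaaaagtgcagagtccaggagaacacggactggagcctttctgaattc
Emx2: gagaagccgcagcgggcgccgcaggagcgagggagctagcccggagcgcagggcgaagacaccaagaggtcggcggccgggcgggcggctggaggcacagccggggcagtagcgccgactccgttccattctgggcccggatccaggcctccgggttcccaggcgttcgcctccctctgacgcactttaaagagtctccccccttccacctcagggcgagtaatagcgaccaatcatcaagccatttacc
Runx2: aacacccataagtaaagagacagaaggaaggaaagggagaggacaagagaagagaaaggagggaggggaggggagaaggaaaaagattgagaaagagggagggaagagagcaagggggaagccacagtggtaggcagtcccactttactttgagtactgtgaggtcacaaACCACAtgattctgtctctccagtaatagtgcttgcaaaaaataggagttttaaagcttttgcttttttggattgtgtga
Esr2: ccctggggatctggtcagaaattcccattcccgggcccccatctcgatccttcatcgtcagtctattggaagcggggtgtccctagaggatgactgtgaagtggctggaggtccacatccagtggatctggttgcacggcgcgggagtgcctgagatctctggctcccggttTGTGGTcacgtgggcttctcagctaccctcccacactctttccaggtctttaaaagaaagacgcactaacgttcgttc
The Nr5a2 window, chr1:136960449-136960698 on the minus strand, held 3 GATA matches, which begin at positions -217, -200 and -164 from the start, and 26.5% of all 32851 windows held at least 1. The second annotated Nr5a2 start held none. Runx2 (chr17:44814628-44814877, minus strand, at -80) and Esr2 (chr12:76177260-76177509, minus strand, at -78) each held 1 RUNX match, as 18.6% of all windows held at least 1. Emx2 (chr19:59458440-59458689, plus strand) held no match, and neither did Foxl2. The NR5A letters were in 3.28% and the FOX letters in 7.1% of all windows, and in 0 of the 6 windows of these 5 genes. The windows of Emx2 and Foxl2 were 67.2% and 70.8% G and C, against a median of 52.4% over all windows and 43.2% for Nr5a2. A match describes these letters only.

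Of the 10 factors, 6 have at least 1 antisense long noncoding RNA gene that overlaps them, and 3 (Nr5a2, Gata4 and Wt1) have no overlapping counted gene. Esr2 overlaps the pseudogene Gm7862 on its own strand, at 2.93 to 5.04 CPM by group mean. Because the strand setting of the counting is not given, reads from a factor and its antisense gene cannot be fully told apart where they overlap. Foxl2os, which shares 12 bases with Foxl2, had a higher mean than Foxl2 in both fresh groups, though not in EM-mGC replicate 3 (209 against 275.3 CPM), with 427 ± 121 CPM in Con-mGC and 322 ± 120 in EM-mGC (SD, n = 5 each), and fell in PBS to 52.3 ± 6.75 (SD, n = 3). Its log2 fold change in culture was -2.64 ± 0.29 (SE, edgeR adjusted p = 3.43e-05), where Foxl2 itself was at -0.60. Gata6os went from 49.3 ± 22.3 to 2.21 ± 0.25 CPM, 22.4-fold lower (-4.49 ± 0.41, adjusted p = 9.35e-06), where Gata6 was 3.03-fold lower.

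Emx2os rose with Emx2, from 3.97 ± 1.34 CPM in EM-mGC (SD, n = 5) to 9.7 ± 1.67 in PBS (SD, n = 3), at 1.26 ± 0.27 (SE, edgeR adjusted p = 0.00223). Tbx3os1 was at 4.26 ± 0.862 CPM in EM-mGC and had 0 counts in all 6 cultured libraries, at least 30.5-fold lower in PBS against a floor of 3 counts per library. Between Con-mGC and EM-mGC it was at 5.6 ± 1.19 and 4.26 ± 0.862 CPM (-0.40 ± 0.22, edgeR adjusted p = 0.576), overlapping where Tbx3 did not. Runx2os1 was at 0.484 ± 0.497 CPM in Con-mGC and 2.98 ± 2.22 in EM-mGC, a log2 fold change of 2.59 ± 0.73 that did not pass the test (adjusted p = 0.39), with 1 to 84 counts per library. The 84 counts (6.42 CPM) were in EM-mGC replicate 3, and the other EM libraries were at 1.93, 0.484, 2.5 and 3.55 CPM. No estimate without replicate 3 is given for this gene. In EET against PBS no antisense gene that was tested passed, with edgeR adjusted p-values of 0.445 for Gata6os, 0.585 for Foxl2os, 0.743 for Runx2os1 and 0.96 for Emx2os.

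**Figure D5:**
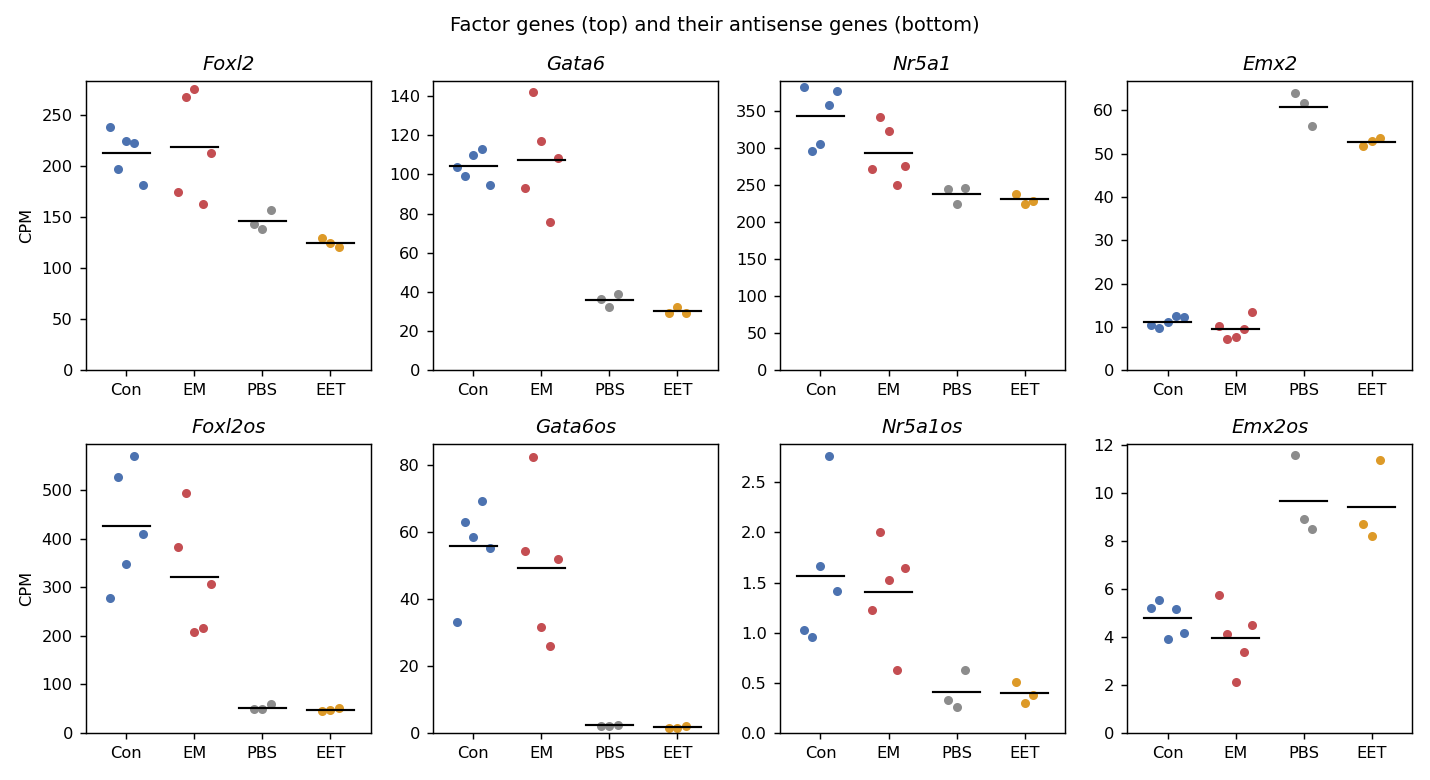
CPM of 4 factor genes (top) and of the antisense gene that overlaps each (bottom) in every library, with group means as bars and y axes from 0. In culture Foxl2os falls to 52.3 CPM and Gata6os to 2.21 CPM, while Emx2os rises with Emx2.

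The partners and relatives of the factors were read from a list of 26 genes. Between Con-mGC and EM-mGC 0 of the 24 tested were called, with a median log2 fold change of -0.18 against -0.01 over all genes, and in EET against PBS 0 of 19. In PBS against EM-mGC 9 of 25 were called higher and 13 lower, where 31.1% and 37.9% of all genes were, with a median of -0.38 against -0.11. Both GATA cofactor genes rose: Zfpm1 (FOG1) from 15.6 ± 1.62 to 60.1 ± 7.77 CPM (log2 fold change 1.92, edgeR adjusted p = 1.63e-06) and Zfpm2 (FOG2) from 15.9 ± 1.77 to 27.6 ± 0.256 (0.77, adjusted p = 0.000339; SD, n = 5 and n = 3). Of the other GATA genes Gata3 rose, from 0.879 ± 0.137 CPM in EM-mGC to 9.58 ± 2.55 in PBS (3.41, edgeR adjusted p = 2.02e-06). Gata1 (-3.41, adjusted p = 0.00021), Gata2 (-4.51, adjusted p = 1.22e-05) and Gata5 (-4.59, adjusted p = 0.00679) fell, from 0.523 to 3.25 CPM by mean in EM-mGC.

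Nr0b1 (DAX1), a repressor of NR5A1, was at 3.69 ± 1.11 CPM in EM-mGC (SD, n = 5) and at 0 in the 3 PBS libraries, at least 26.3-fold lower. The paralog of Runx2, Runx1, rose from 36 ± 17.4 to 77.7 ± 1.17 CPM (1.08, edgeR adjusted p = 0.0126), and Runx3 fell from 2.55 ± 1.36 to 0.0926 ± 0.0429 (-4.71, adjusted p = 0.000161). Esr1, the paralog of Esr2, fell from 24.2 ± 2.96 to 7.82 ± 1.21 CPM (-1.66, adjusted p = 1.59e-05), and Tbx2, that of Tbx3, from 11.5 ± 2.14 to 0.811 ± 0.148 (-3.85, adjusted p = 1.97e-06). The most abundant of the list were Ctnnb1, beta-catenin, from 641 ± 54.2 to 1110 ± 31.1 CPM (0.77, adjusted p = 0.000448), and Cited2, a coactivator, from 300 ± 116 to 953 ± 113 (1.64, adjusted p = 0.000386). Nr0b1, Runx3, Ctnnb1 and Cited2 follow from the rule for named genes, and the others were chosen as direct paralogs or cofactors after their values were seen.

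Granulosa, steroidogenic and Sertoli genes were read the same way in PBS against EM-mGC, where 31.1% of all genes were called higher and 37.9% lower. Of 16 granulosa differentiation genes 14 were called lower and 0 higher (median log2 fold change -2.96), among them Cyp19a1 at -10.59 (edgeR adjusted p = 4.11e-06) and Amh, anti-Mullerian hormone, from 52.1 ± 19.9 to 0.302 ± 0.119 CPM (-7.46, adjusted p = 1.33e-06). The most abundant, Inha and the activin subunit Inhba, were at -0.76 (adjusted p = 0.045) and -0.01 (adjusted p = 0.98). Of 10 steroidogenic genes 4 were lower, a share near that of all genes, and 1 was higher (median -0.34). There the LH receptor gene Lhcgr went from 824 ± 184 to 0.331 ± 0.11 CPM (-11.25, adjusted p = 3.74e-08), whereas Cyp11a1, the side-chain cleavage enzyme, was at 6850 ± 1840 and 5240 ± 318 and was not called (adjusted p = 0.197). Hsd3b1, the next enzyme of the path, was at -1.04 (adjusted p = 0.000862), and Akr1b7, a reductase, at -4.77 (adjusted p = 0.00417) from 1.45 CPM. Of 9 tested Sertoli genes 4 were higher and 5 lower, with Cyp26b1 rising from 2.89 ± 1.02 to 164 ± 6.17 CPM (5.79, edgeR adjusted p = 7.86e-08). Of the fixed Sertoli markers, Sox9, a testis factor, rose from 1.66 ± 0.733 to 17.8 ± 2.13 CPM (3.39, adjusted p = 9.07e-06). Dhh fell from 22 ± 9.41 to 6.2 ± 0.925 CPM (-1.85, adjusted p = 0.00113), and Dmrt1 was at 0 in both groups. Cldn11, a tight junction gene, fell from 4.83 ± 1.77 to 0.083 ± 0.0698 (-5.86, adjusted p = 1.37e-05).

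Within the fresh groups, the factors varied together in part. Over the 10 fresh libraries, and after removal of each group's mean, log2 CPM of Nr5a1 and Gata4 correlated at a Pearson r of 0.895, Foxl2 and Gata6 at 0.891, and Gata4 and Gata6 at 0.872. Runx2 ran against Nr5a1 (-0.91) and Tbx3 against Foxl2 (-0.761). The points share each library's cell mixture and depth, and these values are descriptions. The protein-coding genes most like a factor by the same measure, among 12533, were Atp1b3 for Foxl2 (0.991), Cbll1 for Nr5a1 (0.947), Cpox for Nr5a2 (0.984), Orc2 for Gata4 (0.98) and Ect2 for Gata6 (0.973). For the others they were Plagl1 for Esr2 (0.963), Pitpnc1 for Runx2 (0.976), Sardh for Wt1 (0.948), Stx17 for Tbx3 (0.966) and Cyp4f16 for Emx2 (0.951). Each is the highest of the 12533 candidates over 10 libraries, so a high r follows in part from this choice and does not show a link. For the same genes, picked with EM-mGC replicate 3 included, the 10 values without that library were 0.942 to 0.99.

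In the coordinates of the counted files, on GRCm39, Foxl2 (ENSMUSG00000050397) lies on chromosome 9 from 98837341 to 98840596 and its exons fill the whole span of 3256 bases. Nr5a1 (ENSMUSG00000026751) lies on chromosome 2 from 38582668 to 38604554, Wt1 (ENSMUSG00000016458) on chromosome 2 from 104956874 to 105003961, and Nr5a2 (ENSMUSG00000026398) on chromosome 1 from 136770309 to 136888186. Gata4 (ENSMUSG00000021944) lies on chromosome 14 from 63436371 to 63509141, Esr2 (ENSMUSG00000021055) on chromosome 12 from 76167193 to 76224033 and Tbx3 (ENSMUSG00000018604) on chromosome 5 from 119808734 to 119822789. Emx2 (ENSMUSG00000043969) lies on chromosome 19 from 59446804 to 59453789 and Gata6 (ENSMUSG00000005836) on chromosome 18. Runx2 (ENSMUSG00000039153), on chromosome 17 from 44806874 to 45125684, has the longest span and shares 37646 bases with Supt3, a gene of the other strand at 14.8 to 20.7 CPM by group mean.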

How the data were processed

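The authors deposited 2 tables of raw read counts per Ensembl gene, 1 for the fresh and 1 for the cultured cells, with each library in its own column (0 columns were unused). Poly(A) RNA was made into stranded libraries and sequenced from both ends at 150 bases. The submitters' processing notes name fastp, HISAT2, StringTie and GRCm39, and the counting is by featureCounts; versions and the strand setting are not given in the sources used here, so reads of overlapping and antisense genes are uncertain.

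R 4.3.3 was used with edgeR 4.0.16, DESeq2 1.42.0 and limma 3.58.1. Genes passed filterByExpr, were normalized by TMM within a comparison and tested by edgeR (quasi-likelihood F-test). P-values were adjusted over all genes by Benjamini-Hochberg and called at 0.05. SE is that of the log2 fold change. Genes were matched to exon lengths of GRCm38 by Ensembl ID (52029 of 57010). Correlations used log2(CPM + 1). Single values were compared by two-sided exact permutation tests. No pair of libraries within a group agreed within sampling noise.

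The factors, gene lists, tests and alternatives were chosen with earlier results of these data known. Named genes are the 10 factors, in each list the 2 of highest mean level and the 2 with the largest called change, and the genes most alike; markers of other cells are given mostly as sums, and further genes are named as chosen later. One gene that the rule names is not reported here. Lists of ovulation response and smooth muscle genes were also run. Intervals and floors cover counting error only. The steps were tested on simulated data. Alternatives were DESeq2, RLE, no filter, at least 10 counts in every library, the replicate number as a block, all 16 libraries in 1 fit and leaving out each library.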

Additional observations from a re-analysis of the deposited data

How the results depend on the processing

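The number of genes called between EM-mGC and Con-mGC moved from 0 to 113 with DESeq2, to 4 with no filter on low counts and to 2 with the replicate block, and ranged from 0 to 46 when 1 library was left out (46 without Con-mGC replicate 3, 1 without EM-mGC replicate 1). For EET against PBS it moved from 184 to 341 with DESeq2, 662 with no filter and 341 with the replicate block (183 of the 184 among them), and ranged from 48 (without EET replicate 3) to 436 (without PBS replicate 2) when 1 library was left out. The cause was not tested. The count of PBS against EM-mGC stayed within 1.5 times of 11937 under every alternative, from 8560 to 14355. A minimum of 10 counts in every library moved the median of all genes there by -0.158 on the log2 scale, and Tbx3 could not be tested under it.

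Of the 10 factors, 3 changed the sign of a small EM-mGC against Con-mGC estimate when a library was left out: Foxl2 ranged from -0.0668 to 0.121, Gata6 from -0.0861 to 0.137 and Nr5a2 from -0.315 to 0.0264. The Tbx3 estimate ranged from -1.15 to -0.92 over all alternatives, with adjusted p-values of 0.000416 to 0.69. No factor changed sign in the other comparisons. In PBS against EM-mGC, 8 of the values under an alternative fell short of the threshold, for Nr5a1 and Foxl2 alone, and Nr5a1 also did so with no filter (adjusted p = 0.115).

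Equal replicate numbers were not shown to mark pairs. Deviations of equally numbered libraries correlated at 0.0986, 0.194 and -0.0588 for EET and PBS, where 3 of 6 libraries correlated best with their own number, and at -0.301 to 0.183 for EM-mGC and Con-mGC, where 1 of 10 did. The replicate block changed no call of a factor, with adjusted p-values of 0.0508 for Wt1 and 0.0513 for Foxl2 in EET against PBS and 0.179 for Tbx3 in EM-mGC against Con-mGC. Depth limits Tbx3 in culture, at 3 to 8 counts per library.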

Other observations

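The list of 12 ovulation response genes was higher in sum in the cultured than in the fresh libraries, at 602 to 747 CPM in PBS and 125 to 222 in EM-mGC. By edgeR 4 of 10 tested genes were called higher and 3 lower, near the 31.1% and 37.9% of all genes (median log2 fold change 0.04 against -0.11 over all genes). From EM-mGC to PBS, Cebpb (26.5 to 226 CPM), Adamts1 (106 to 291) and Ptgs2 (11.8 to 113) rose, and Pgr (1.45 to 0.0474) and Areg (1.5 to 0.559) fell. Of the 4 smooth muscle markers 1, Cnn1, was called lower in EET than in PBS (log2 fold change -0.70, edgeR adjusted p = 0.0166), where 1.22% of all genes were called. Acta2 (-0.26) was below 0 as well, Myh11 (0.54) and Des (0.38) were above 0, and the median of the list was 0.06. Of the 7 tested surface epithelium markers, Krt18 alone was called in EET against PBS. It was lower (-0.29, edgeR adjusted p = 0.0152), at 78.2 ± 2.79 against 96.2 ± 2.78 CPM (SD, n = 3 each). Krt8 (-0.27), Upk3b (-0.33), Msln (-0.25) and Epcam (-0.32) were also below 0, and Krt7 (0.34) and Krt19 (0.44) above. Apart from Krt8 and Krt18, these markers were low in PBS, such as Krt7 at 0.604 and Krt19 at 0.589 CPM. Krt18 by itself does not measure surface epithelium there.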
